A study of Mus musculus with 12 samples.

Results

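The LIM homeobox transcription factors and their cofactors were followed in neurons sorted from the spiral ganglion, whose axons link hair cells of the cochlea with the brainstem. The 10 genes were chosen by symbol: the LIM homeobox genes Isl1, Isl2, Lhx1, Lhx2, Lhx9 and Lmx1a, the LIM-only genes Lmo1 and Lmo4, and the LIM domain binding genes Ldb1 and Ldb2. Of these, 9 had a row among the 25674 genes of the count table, and 8 passed the filter on low counts, which left 14813 genes to test. Lmx1a had no row and Lhx9 did not pass. The question set by the genotype was which LIM factors accompany or replace Isl1 in neurons meant to lack it.

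All 12 embryos carried Neurod1Cre, a Cre recombinase transgene on a Neurod1 bacterial artificial chromosome, and the red Cre reporter Rosa26tdTOM. The 6 control embryos carried nothing else, whereas the 6 embryos labelled Isl1CKO also had both Isl1 alleles flanked by loxP sites (Neurod1Cre;Isl1loxP/loxP;Rosa26tdTOM), on a mixed C57BL/6 and sv129 background. At E14.5, 100 tdTomato+ cells were sorted from the spiral ganglia of both inner ears of 1 embryo for each library, per the protocol in the labels. Deletion is therefore limited to cells with Cre activity, and the labels tie no library to a litter or sex. One tag of the labels calls the numbers technical replicates while the design text speaks of biological ones, so p-values measure the spread between these samples.

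LIM homeobox proteins bind DNA through a homeodomain and bind partners through their LIM zinc fingers. LDB proteins join each other and so bridge LIM homeobox factors into larger complexes, SSBP proteins bind and stabilise LDB, and LMO proteins, which have LIM domains and no homeodomain, compete for LDB. Combinations of LIM homeobox factors, called a LIM code, are known to mark neuron classes in the spinal cord and brainstem, and Isl1 is a known marker of developing inner ear neurons.

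Total counts ran from 11895603 to 13857480 per library, and the level of 3 counts lay between 0.219 and 0.250 CPM (counts scaled by library total after TMM adjustment). Floors cover counting error only, since amplified reads are not independent molecules. The neuronal genes Tubb3, Elavl3 and Stmn2 were high in every library, with Tubb3 between 2769 and 4630 CPM, and Pou4f1, a sensory neuron factor, was between 783 and 1305 CPM. The summed level of 7 macrophage markers ran from 1.63 to 258 CPM in controls and from 1.17 to 499 CPM in libraries labelled Isl1CKO. It was above 20 CPM in 6 libraries, namely control 1 and 4 and Isl1CKO 1, 3, 4 and 6. Libraries Isl1CKO 2, 3 and 5 held Xist together with Y-linked transcripts, with Xist at 62.9 to 132 CPM and the Y-linked mean at 35.7 to 87.3 CPM. The other 9 libraries held one or the other, so these 3 go against the description of a single embryo per library. Results are therefore also given without these sets of libraries. Every library labelled Isl1CKO is in at least 1 of these sets. Without the macrophage set only Isl1CKO 2 and 5 remain of that label, and without the other set only Isl1CKO 1, 4 and 6. Neither setting is thus free of both features.

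Of the 8 genes tested, 4 passed at 0.05 after Benjamini-Hochberg adjustment of the quasi-likelihood p of edgeR over all tested genes. Sizes are given as log2 differences, libraries labelled Isl1CKO minus control, ± the standard error where stated. Lhx1 and Lhx2 were higher and Isl2 and Lmo1 were lower in libraries labelled Isl1CKO. For comparison, 10.2% of all tested genes passed, 5.01% of them higher and 5.19% lower. The groups did not overlap for the same 4 genes, against 6.78% of all tested genes. Isl1 itself, Lmo4, Ldb1 and Ldb2 did not pass. In these bulk samples, fewer cells with a transcript and less of that transcript per cell cannot be told apart.

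The stretches before the gene starts are shown for Isl1, for the 4 genes that passed, and for Lhx9, the closest relative of Lhx2, because these genes share a protein family and were at very different levels. Each is the 250 bases upstream of a RefSeq gene start on GRCm38.p6, 5′ to 3′ on the gene's own strand, taken at the first listed start where a gene has several. Capitals mark TAATTA, a core bound by many homeodomains, or CATTAG, a sequence ISL1 is known to bind, searched on both strands (the reverse complement of CATTAG is CTAATG).
Isl1 (chr13:116309689-116309938, minus strand): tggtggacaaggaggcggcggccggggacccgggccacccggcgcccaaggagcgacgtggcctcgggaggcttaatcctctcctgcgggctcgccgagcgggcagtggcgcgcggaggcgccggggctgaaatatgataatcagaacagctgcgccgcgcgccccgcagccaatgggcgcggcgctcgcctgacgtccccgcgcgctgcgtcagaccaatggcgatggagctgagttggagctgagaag
Isl2 (chr9:55540899-55541148, plus strand): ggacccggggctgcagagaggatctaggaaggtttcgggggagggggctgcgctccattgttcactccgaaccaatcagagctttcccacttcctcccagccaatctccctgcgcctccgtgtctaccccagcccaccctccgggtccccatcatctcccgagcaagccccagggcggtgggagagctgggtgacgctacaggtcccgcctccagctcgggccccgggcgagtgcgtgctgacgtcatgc
Lhx1 (chr11:84525535-84525784, minus strand): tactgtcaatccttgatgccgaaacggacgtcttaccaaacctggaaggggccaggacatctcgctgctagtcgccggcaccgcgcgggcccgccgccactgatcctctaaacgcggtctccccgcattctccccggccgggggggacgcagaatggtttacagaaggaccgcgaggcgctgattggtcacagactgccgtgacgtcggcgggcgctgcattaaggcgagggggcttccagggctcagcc
Lhx2 (chr2:38339031-38339280, plus strand): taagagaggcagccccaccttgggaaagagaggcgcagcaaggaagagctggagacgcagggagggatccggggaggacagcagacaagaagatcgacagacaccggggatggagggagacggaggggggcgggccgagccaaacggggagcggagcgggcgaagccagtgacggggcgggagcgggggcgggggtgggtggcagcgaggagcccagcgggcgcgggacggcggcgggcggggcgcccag
Lhx9 (chr1:138842445-138842694, minus strand): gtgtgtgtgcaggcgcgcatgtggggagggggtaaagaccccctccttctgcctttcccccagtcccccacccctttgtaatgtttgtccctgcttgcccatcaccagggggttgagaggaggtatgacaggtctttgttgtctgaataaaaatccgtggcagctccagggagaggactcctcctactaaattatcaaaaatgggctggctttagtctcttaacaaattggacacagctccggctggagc
Lmo1 (chr7:109175208-109175457, minus strand): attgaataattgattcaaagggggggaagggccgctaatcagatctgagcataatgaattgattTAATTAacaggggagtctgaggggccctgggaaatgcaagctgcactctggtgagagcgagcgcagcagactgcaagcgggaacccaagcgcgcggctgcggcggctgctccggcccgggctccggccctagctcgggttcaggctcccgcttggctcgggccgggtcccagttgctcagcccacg
Lmo1 alone of these 6 windows held TAATTA, starting 186 bases before the gene start, and none held CATTAG. Among 32851 windows of the same length, 4.84% held TAATTA and 6.36% held CATTAG. The windows of Isl1, Lhx1 and Lhx2 were rich in CpG dinucleotides, with 33, 26 and 25 CpGs against a median of 6 over all windows, and those of Lmo1 and Isl2 had 17 and 16. At the second listed starts of Lmo1 and Lhx2 the windows had 29 and 24, so the order of these genes depends on the start used. The Lhx9 window had 4, and 13 of its bases lie in an annotated exon. The windows of Lhx9 and Isl2 lie inside the annotated genes, whose outermost starts are at 138848577 and 55538672. The other windows lie at the outermost start, so CpG counts are compared at unlike positions. The windows of Lhx1 and Lmo1 were added to the set after their values were seen. Promoter sequences in the RefSeq table matched 9 of the 10 genes.

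Isl1 (ENSMUSG00000042258, chromosome 13, 116298281 to 116309689, minus strand) remained the most abundant LIM homeobox transcript in both genotypes. In controls its level was 1171 CPM at the lowest, 1572 at the median and 1777 at the highest, and in libraries labelled Isl1CKO it was 1050, 1424 and 1589 CPM. The groups overlapped over most of their range, and replicate 1 was the lowest library of each. The log2 fold change was -0.15, with a 95% interval from -0.37 to 0.08 (edgeR adjusted p = 0.460). The value is for RNA counted over the whole gene. The stretch between the loxP sites was not measured on its own here, so the genotype rests on the labels.

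Isl2 (ENSMUSG00000032318, chromosome 9, 55538672 to 55546180, plus strand) encodes the closest relative of ISL1, known from motor neurons and retinal ganglion cells. Its level was 205 CPM at the lowest, 294 at the median and 365 at the highest in controls, and 37.6, 69.6 and 81.1 CPM in libraries labelled Isl1CKO. Every control library lay above every library labelled Isl1CKO, and the lowest of the latter was replicate 5. The log2 difference came to -2.15 ± 0.20, a 4.43-fold fall (edgeR adjusted p = 4.85e-06). The fall was -2.11 with Isl1CKO 2, 3 and 5 left out and -2.44 without the 6 libraries above 20 CPM of macrophage markers, and it passed in both (edgeR adjusted p of 3.37e-04 and 0.00589).

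Lhx2 (ENSMUSG00000000247, chromosome 2, 38339281 to 38369733, plus strand) encodes a factor known from the forebrain, eye and hair follicle. It was between 1.66 and 6.90 CPM in controls, with a median of 5.92, so that a low level was counted in each of the 6. In libraries labelled Isl1CKO it was 194 CPM at the lowest, 361 at the median and 528 at the highest, with replicate 1 the lowest and replicate 5 the highest. The log2 difference came to 6.25 ± 0.36, a 76.3-fold rise whose 95% interval on the log2 scale was 5.49 to 7.02 (edgeR adjusted p = 5.36e-08). It was the 8th smallest p of all tested genes. The rise was 6.11 with Isl1CKO 2, 3 and 5 left out and 6.33 without the 6 libraries above 20 CPM of macrophage markers (edgeR adjusted p of 8.55e-06 and 1.26e-04). In Isl1CKO 2 and 5, where the summed macrophage markers were 1.32 and 1.17 CPM, Lhx2 stood at 365 and 528 CPM. Both of these libraries held Xist together with Y-linked transcripts, and the part of other cells in the Lhx2 level was not tested.

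Lhx1 (ENSMUSG00000018698, chromosome 11, 84518284 to 84525535, minus strand) encodes a factor known from the head organiser, the kidney and Purkinje cells. Controls were at 7.11 CPM at the lowest, 10.3 at the median and 19.9 at the highest, and libraries labelled Isl1CKO at 125, 203 and 354 CPM. The groups were well apart, and the extremes of the latter group were again replicates 1 and 5. The log2 difference came to 4.15 ± 0.31, a 17.8-fold rise (edgeR adjusted p = 5.84e-07). It was 4.03 with Isl1CKO 2, 3 and 5 left out and 4.21 without the 6 libraries above 20 CPM of macrophage markers (edgeR adjusted p of 4.34e-05 and 5.02e-04). The long noncoding gene Lhx1os, which lies beside Lhx1 and does not overlap it in the annotation, went from 12.0 ± 2.99 to 135 ± 31.3 CPM (SD, n = 6), or 3.49 in log2 (edgeR adjusted p = 5.36e-08).

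**Figure D1:**
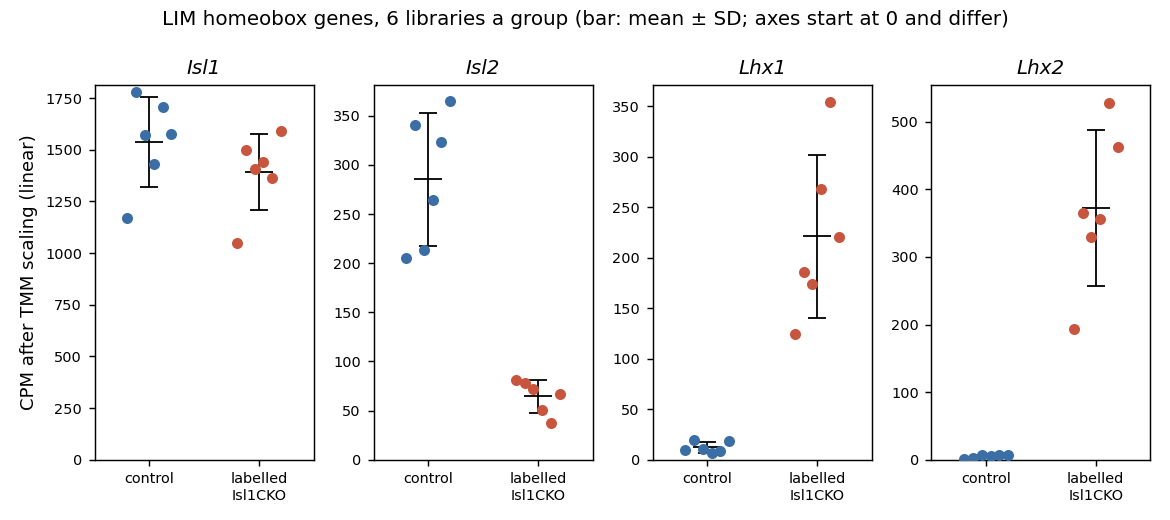
Level of Isl1, Isl2, Lhx1 and Lhx2 in each library (vertical axis, CPM after TMM scaling, linear, a separate scale from 0 for each gene), with points for the 6 control libraries and the 6 libraries labelled Isl1CKO and bars for the mean ± SD. The groups overlap for Isl1, all Isl2 points of the libraries labelled Isl1CKO lie at or under 81.1 CPM and all controls at or above 205, and Lhx1 and Lhx2 are the reverse, with controls at or under 19.9 and 6.90 CPM.

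The make-up of the LIM homeobox RNA was then described per gene length, as CPM per kilobase of exon, for the 10 genes of this class with a row in the table. No test was made, since the genes were chosen with results known. The summed level was 526 ± 80.5 CPM per kilobase in controls and 523 ± 76.2 in libraries labelled Isl1CKO (SD, n = 6). At this choice of length the difference was far smaller than the spread, and no other length was used for the sum. Isl1 made up 74.0% ± 3.01 of that sum in controls and 67.4% ± 3.70 in the other group. Isl2 went from 24.6% ± 3.16 to 5.86% ± 2.33, Lhx2 from 0.209% ± 0.0955 to 15.9% ± 3.18 and Lhx1 from 0.572% ± 0.192 to 10.2% ± 2.87 (SD, n = 6). The group ranges were apart for the shares of Isl2, Lhx1 and Lhx2, while those for Isl1 met at 70.1% and 69.4%. With Isl1CKO 2, 3 and 5 left out, the shares in that group were 68.3% for Isl1, 6.39% for Isl2, 9.80% for Lhx1 and 14.8% for Lhx2. In CPM without length, controls averaged 1538 for Isl1, 285 for Isl2, 12.4 for Lhx1 and 4.87 for Lhx2. Libraries labelled Isl1CKO averaged 1391, 64.4, 221 and 372 CPM. Without length these means add to more in libraries labelled Isl1CKO than in controls, and the spread of that sum was not computed.

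In controls the order by CPM per kilobase was Isl1 at 388, Isl2 at 130, Lhx6 at 3.14, Lhx1 at 3.05 and Lhx2 at 1.11. Lhx6 and Lhx1 were not separable, being in that order in 3 of 6 libraries. In libraries labelled Isl1CKO the order was Isl1 at 351, Lhx2 at 84.8, Lhx1 at 54.3 and Isl2 at 29.4. Lhx2 exceeded Lhx1 in 6 of 6 libraries although their ranges overlapped, and Lhx1 exceeded Isl2 in 5 of 6. The exception was replicate 1, which also had the highest Isl2 share, at 9.75%, and the lowest Lhx2 share, at 11.6%. Replicate 5 was at the other end, with Isl2 at 3.00%, Lhx2 at 21.0% and Lhx1 at 15.2%.

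**Figure D2:**
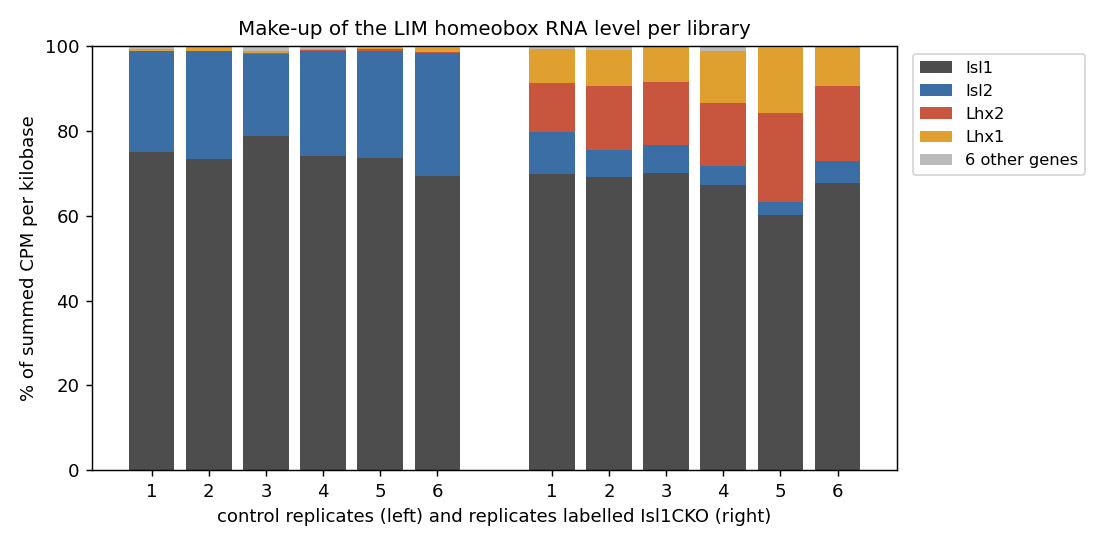
Share of each LIM homeobox gene in the summed CPM per kilobase (vertical axis, percent), one stacked bar for each control library (left) and each library labelled Isl1CKO (right). Isl1 and Isl2 fill nearly the whole bar in the 6 controls, and in the other 6 libraries Lhx2 (11.6% to 21.0%) and Lhx1 (8.09% to 15.2%) take space beside a smaller Isl2 share (3.00% to 9.75%).

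The remaining LIM homeobox genes were at low level. Lhx9, which in spinal dorsal interneurons is known to be expressed together with Lhx2, had at most 4 counts in a control library and 5 in a library labelled Isl1CKO, or up to 0.332 and 0.381 CPM. It was at or near the 3-count floor in both groups and no fold was taken. Lhx3, the ISL1 partner of motor neurons, had at most 1 count in any library except control 3, and Lmx1b had at most 2. Transcripts of the LIM homeobox, LMO and LDB genes shared few stretches of 31 bases: 4 of 153 gene pairs shared any, at most 5 stretches, and none of those pairs included Isl1, Isl2, Lhx1 or Lhx2.

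Lhx4 and Lhx5 did not pass the filter on low counts and varied between libraries of the same genotype. Lhx4, a relative of Lhx3, had at most 8 counts in controls, whereas it had 80, 104 and 168 counts in Isl1CKO 2, 4 and 5, or 6.21, 7.77 and 12.3 CPM, and 1 to 16 counts in the other libraries of that label. Lhx5, the closest relative of Lhx1, had at most 2 counts in controls. It had 94, 29 and 22 counts in Isl1CKO 4, 1 and 2 and none in Isl1CKO 3 and 6. Counts above those of controls were thus not found in every library labelled Isl1CKO. With no filter on low counts Lhx4 was called as higher (3.80, edgeR adjusted p = 0.0262), as it was without the 6 libraries above 20 CPM of macrophage markers (4.46, edgeR adjusted p = 0.0077). Lhx6, known from interneurons and craniofacial mesenchyme, ran from 8.88 to 25.8 CPM in controls and from 1.13 to 18.4 CPM in the other group (log2 fold change -0.87, 95% interval -1.95 to 0.21, edgeR adjusted p = 0.331).

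**Figure D3:**
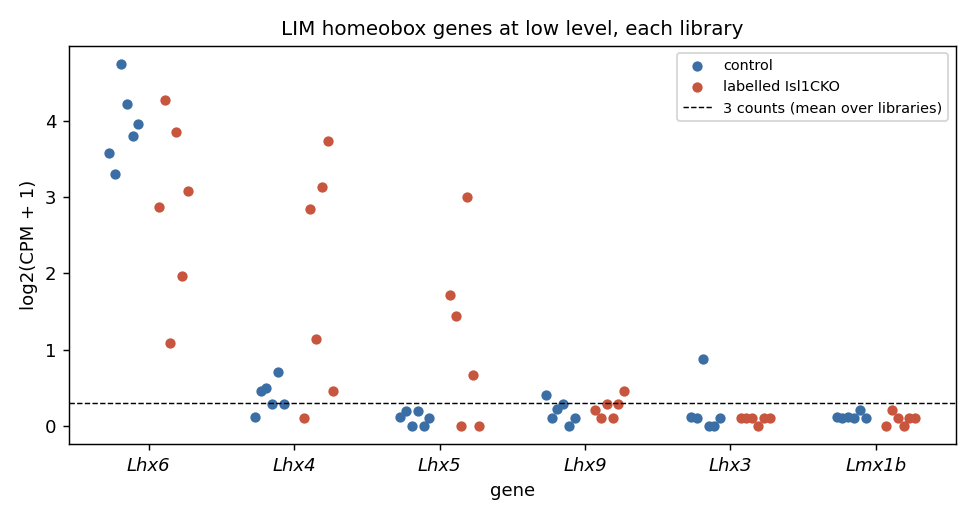
Level of 6 further LIM homeobox genes in each library (vertical axis, log2 of CPM + 1), with points for the 6 control libraries and the 6 labelled Isl1CKO and a dashed line at 3 counts. Lhx9, Lhx3 and Lmx1b lie near or under the line with control 3 apart for Lhx3, and Lhx4 and Lhx5 rise above it in some of the libraries labelled Isl1CKO.

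Among the LIM-only cofactors, 1 of the 2 genes described passed, as lower, beside 5.19% of all tested genes. Lmo1 (ENSMUSG00000036111, chromosome 7, 109138572 to 109175207, minus strand), known as an oncogene of T-cell leukaemia when misexpressed, was 64.6 CPM at the lowest, 81.4 at the median and 102 at the highest in controls. In libraries labelled Isl1CKO it was 27.4, 46.6 and 57.4 CPM. The groups did not overlap, with replicate 1 lowest in each. The log2 difference came to -0.87 ± 0.17, a 1.83-fold fall (edgeR adjusted p = 0.00355). It was -0.92 with Isl1CKO 2, 3 and 5 left out and -0.90 without the 6 libraries above 20 CPM of macrophage markers, and passed in both (edgeR adjusted p of 0.0472 and 0.0379).

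Lmo4 (ENSMUSG00000028266, chromosome 3, 144188530 to 144205220, minus strand), a broadly expressed family member, was 21.6 CPM at the lowest, 28.5 at the median and 54.2 at the highest in controls. It was 23.5, 37.6 and 51.2 CPM in libraries labelled Isl1CKO. The groups overlapped throughout. The log2 fold change was 0.21, with a 95% interval from -0.31 to 0.73 (edgeR adjusted p = 0.666), so neither a small fall nor a rise of up to 0.73 was outside the error.

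The family relatives Lmo2 and Lmo3, taken from the wider list of LMO and LDB genes, both rose. Lmo3 went from 5.36 ± 3.91 to 52.4 ± 30.9 CPM (SD, n = 6), or 3.29 ± 0.50 in log2 (edgeR adjusted p = 4.98e-04). Its libraries labelled Isl1CKO ran from 16.9 to 96.2 CPM, all above the highest control at 13.0. Lmo2, known from blood and endothelial development, went from 1.68 ± 1.59 to 15.1 ± 2.91 CPM (SD, n = 6), or 3.17 ± 0.64 in log2 (edgeR adjusted p = 0.00435). With 1 count in control 2 and 3 in control 4, Lmo2 entered the test through the libraries labelled Isl1CKO. Lmo2 was at 16.1 and 15.5 CPM in Isl1CKO 2 and 5, the libraries of that label with the lowest macrophage markers, and the endothelial genes Pecam1 and Tek were at most 1.88 and 0.698 CPM in any library. Kdr reached 27.7 CPM in 1 library. Isl1CKO 2 and 5 also held Xist together with Y-linked transcripts, and the part of other cells in the Lmo2 level was not tested. Lmo2 did not pass with Isl1CKO 2, 3 and 5 left out (log2 fold change 2.94, edgeR adjusted p = 0.0694) and without the 6 libraries above 20 CPM of macrophage markers (2.97, edgeR adjusted p = 0.161).

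Per gene length, the summed LMO level was 64.3 ± 12.1 CPM per kilobase in controls and 57.0 ± 7.44 in libraries labelled Isl1CKO (SD, n = 6). Lmo1 made up 83.0% ± 4.36 of it in controls and 51.8% ± 13.1 in the other group. The share of Lmo3 went from 1.71% ± 1.52 to 17.5% ± 9.99 and that of Lmo2 from 1.19% ± 1.08 to 12.3% ± 2.50, while Lmo4 held 14.1% ± 2.95 and 18.4% ± 4.37 (SD, n = 6). Per kilobase, the LMO sum, like the LIM homeobox sum, thus differed by less than the spread while its parts did not keep their shares. Other lengths were not used for the summed levels or the LMO shares, which depend on this choice. In CPM without length, Lmo3 averaged 52.4 and Lmo1 45.3 in libraries labelled Isl1CKO, the reverse of their order per kilobase. Lmo2 and Lmo4 averaged 15.1 and 37.5 CPM there. Controls averaged 82.8 CPM for Lmo1, 1.68 for Lmo2, 5.36 for Lmo3 and 32.4 for Lmo4. Without length the LMO means thus add to more in libraries labelled Isl1CKO than in controls, the reverse of the sums per kilobase.

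**Figure D4:**
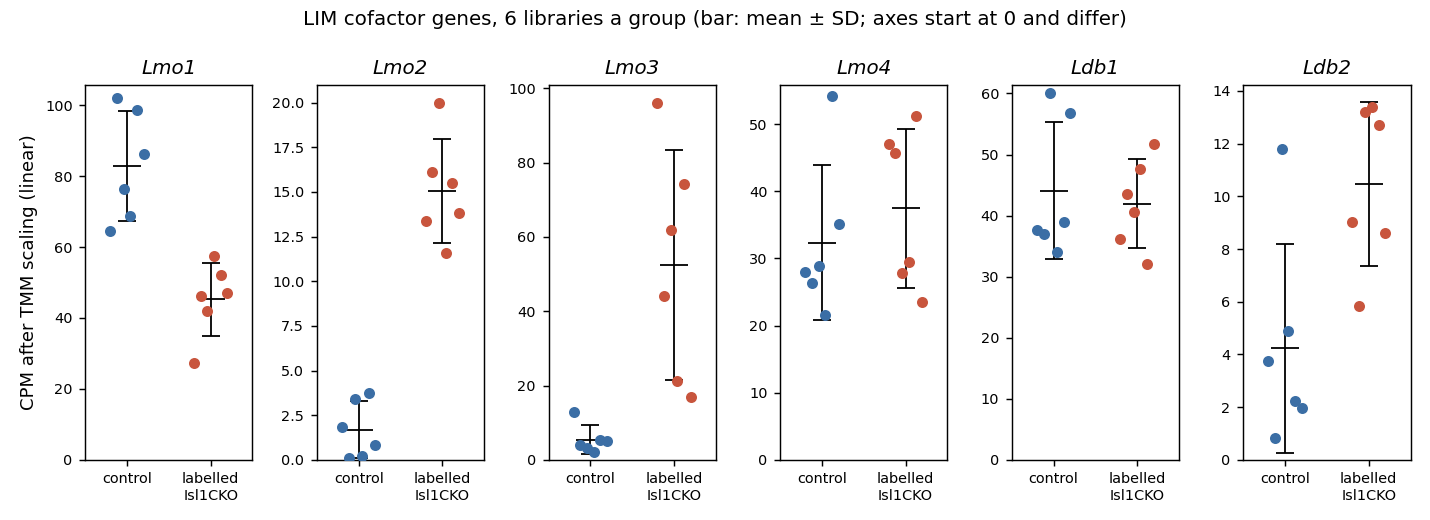
Level of Lmo1 to Lmo4, Ldb1 and Ldb2 in each library (vertical axis, CPM after TMM scaling, linear, a separate scale from 0 for each gene), with points for 6 libraries a group and bars for the mean ± SD. Lmo1 is lower and Lmo2 and Lmo3 are higher in every library labelled Isl1CKO than in any control, Lmo4 and Ldb1 overlap, and Ldb2 is higher except for control 3 at 11.8 CPM.

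The bridging factor Ldb1 (ENSMUSG00000025223, chromosome 19, 46031570 to 46045214, minus strand) was 34.1 CPM at the lowest, 38.3 at the median and 60.0 at the highest in controls. It was 32.1, 42.1 and 51.7 CPM in libraries labelled Isl1CKO. The groups overlapped throughout, with a log2 fold change of -0.07 and a 95% interval from -0.44 to 0.30 (edgeR adjusted p = 0.852). Its sign changed without control 3 (0.03) or control 6 (0.01), so no direction can be read. Exons of Ldb1 overlap those of Pprc1 on the opposite strand, and with the use of strand not stated in the sources used here its counts are uncertain.

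Ldb2 (ENSMUSG00000039706, chromosome 5, 44472132 to 44799680, minus strand), the second LDB gene, was lower in level. Controls were at 0.814 CPM at the lowest, 2.98 at the median and 11.8 at the highest, and libraries labelled Isl1CKO at 5.82, 10.9 and 13.4 CPM. Control 3 lay inside the range of the other group and the other controls lay below it. The log2 difference came to 1.31 ± 0.50, and its 95% interval of 0.23 to 2.38 is not adjusted for the number of genes (edgeR adjusted p = 0.125). Without control 3 the value was 1.93 (edgeR adjusted p = 0.0104), and with the replicate number as a block it was 1.70 (edgeR adjusted p = 0.0262). Under limma-voom it was 1.82 (limma adjusted p = 0.0132). Whether Ldb2 passed therefore depended on control 3 and on the model. Per kilobase, the summed LDB level was 10.8 ± 3.25 in controls and 12.2 ± 1.62 in libraries labelled Isl1CKO (SD, n = 6).

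Of the 4 genes for direct LDB partners, 2 passed, both higher, beside 10.2% of all tested genes. Ssbp2 went from 143 ± 26.0 to 218 ± 22.9 CPM (SD, n = 6), or 0.61 ± 0.12 in log2 (edgeR adjusted p = 0.00434), and its groups did not overlap. An exon of Ssbp2 overlaps a gene on the opposite strand, and it did not pass with Isl1CKO 2, 3 and 5 left out (0.58, edgeR adjusted p = 0.0609) or without the 6 libraries above 20 CPM of macrophage markers (0.56, edgeR adjusted p = 0.249). Ssbp3 had a log2 fold change of 0.33 close to the threshold (edgeR adjusted p = 0.0495), overlapping groups, and no call in 16 of 22 alternative settings. Rlim, whose product marks LDB proteins for degradation, and Ssbp4 differed by 0.31 and -0.03 in log2, with edgeR adjusted p = 0.152 and 0.938.

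**Figure D5:**
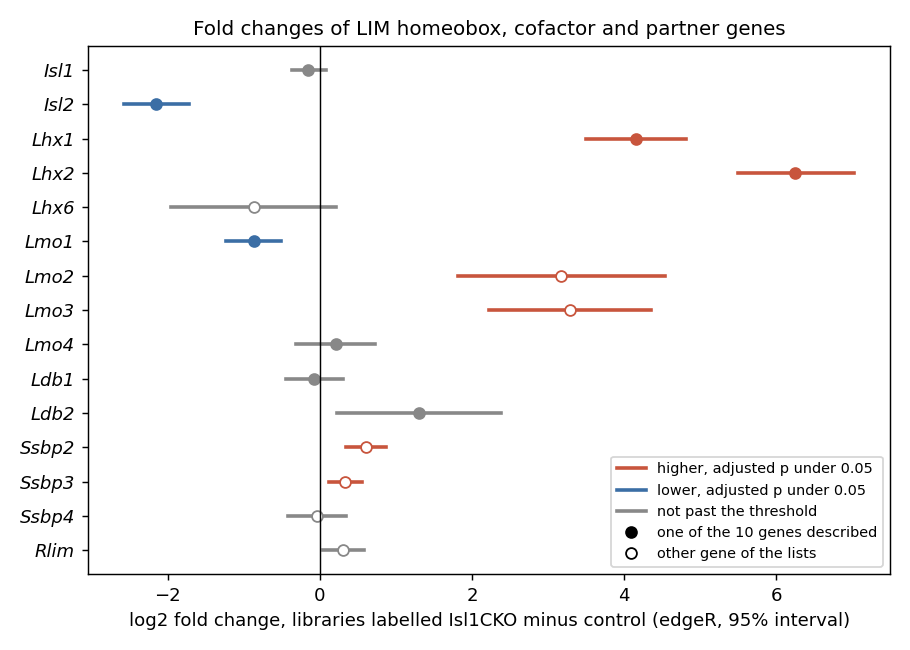
Log2 fold change, libraries labelled Isl1CKO minus control, with its 95% interval (horizontal axis) for the 15 tested genes of the LIM homeobox, LMO, LDB and LDB partner lists (vertical axis). Red marks genes past the threshold as higher, blue as lower and grey genes not past it. Filled points are genes of the 10 described and open points other genes of the lists. The intervals of Lhx2 and Lhx1 lie above 3, those of Isl2 and Lmo1 lie below 0, and those of Isl1, Lmo4 and Ldb1 include 0.

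By list, 3 of 5 tested LIM homeobox genes passed (2 higher, 1 lower), as did 3 of 6 LMO and LDB genes (2 higher, 1 lower), beside 10.2% of all tested genes. The median log2 fold changes of these lists were -0.15 and 0.76, against 0.0045 over all tested genes. Lmo2, counted here as higher, passed the filter on low counts only through the libraries labelled Isl1CKO, so its call and its part in the median are favoured by the filter. Of 31 tested genes for other LIM domain proteins, which act mostly at the cytoskeleton, 6 passed, 2 higher and 4 lower, with a median of -0.11. The smallest p among them were those of Pdlim5, Csrp2 and Pdlim1. Pdlim5, an actin-associated scaffold gene, went from 49.4 ± 18.2 to 10.4 ± 3.65 CPM (SD, n = 6), or -2.24 in log2 (edgeR adjusted p = 2.00e-04). Csrp2 and Pdlim1 differed by -0.58 and -1.85 in log2, with edgeR adjusted p = 0.00395 and 0.0106. With Isl1CKO 2, 3 and 5 left out, as well as without the 6 libraries above 20 CPM of macrophage markers, 2 genes of this list passed. Pdlim5 was among them in both (-2.01 and -2.09), and Csrp2 and Pdlim1 were in neither.

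Factors that accompany LIM codes in the spinal cord and hindbrain were mostly at or near the floor: 16 of 20 had a row and 5 were tested. Of these 5, 2 passed, both lower, beside 10.2% of all tested genes. Gata3, a zinc finger factor of auditory neurons, went from 1474 ± 257 to 225 ± 174 CPM (SD, n = 6), or -2.71 in log2 (edgeR adjusted p = 0.00961). Its lowest library was Isl1CKO 5 at 18.2 CPM and the highest of that label was Isl1CKO 1 at 528 CPM. Pou4f2, a relative of Pou4f1, differed by -1.56 in log2 (edgeR adjusted p = 0.00903). With Isl1CKO 2, 3 and 5 left out Pou4f2 did not pass (-1.29, edgeR adjusted p = 0.0693), and Gata3 did (-2.29, edgeR adjusted p = 0.0034). Pou4f1 itself did not pass, at 1068 ± 149 and 929 ± 115 CPM (SD, n = 6; edgeR adjusted p = 0.249). Exons of Gata3 overlap those of other annotated genes, so its counts are uncertain.

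Among genes known to be controlled by LIM factors elsewhere, the axon guidance receptor Robo2 rose. Robo2 was 102 CPM at the lowest, 123 at the median and 137 at the highest in controls, and 273, 427 and 596 CPM in libraries labelled Isl1CKO. The groups did not overlap, and the log2 difference came to 1.84 ± 0.16 (edgeR adjusted p = 2.23e-06). Robo1 did not pass (0.24, edgeR adjusted p = 0.253), and Robo3 was not tested, with a mean of 0.104 and 0.652 CPM. Of the 5 cholinergic genes of the ISL1 and LHX3 motor neuron programme, 3 were tested and 1 passed, beside 10.2% of all tested genes. This was the choline transporter gene Slc5a7, with a difference of 1.35 in log2 (edgeR adjusted p = 0.0386). It was no longer called with the replicate number as a block, with either set of libraries left out, or on leaving out control 1, 3, 4, 5 or 6 or Isl1CKO 1, 2, 3 or 6 alone, and Chat, which makes acetylcholine, averaged 0.106 and 0.163 CPM.

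Markers of other cells were read beside these results, with 10.2% of all tested genes passing. Of 10 spiral ganglion neuron markers 2 were higher (Neurod1 and Stmn2) and 3 lower (Gata3, Ntrk3 and Elavl4). None of the 5 Schwann and satellite glia markers tested, of 7, or of the 7 macrophage markers passed, and summed glial markers ran from 31.8 to 184 CPM in controls and from 34.8 to 249 CPM in the other group. Of 7 mesenchyme markers, 3 were tested and 2 passed, both higher (Tbx18 and Col3a1). Tbx18 ran from 0 to 3.73 CPM in controls and from 24.6 to 51.4 CPM in the other group. It therefore passed the filter on low counts through the group where it was high, which favours a call as higher. The 7 mesenchyme markers summed to 37.4 to 81.7 CPM in controls and 61.2 to 114 CPM in the other group. Prrx1 averaged 0.337 and 4.72 CPM, and Pou3f4, the other tested marker, 52.9 and 27.4 CPM (-0.95 in log2, edgeR adjusted p = 0.143). The highest Col1a1 level was 0.37 CPM among controls against 2.33 CPM in the other group, and that of Pdgfra 0.332 against 2.99 CPM. The ranges of both genes overlapped. Twist1 went the other way without overlap, with controls at 0.25 to 2.37 CPM and the other group at or under 0.0776 CPM. Col1a1, Pdgfra and Twist1 were at low level and were not tested. Of 7 hindbrain and brain markers, 3 were tested and 1 passed. This was Mab21l1, which was higher, going from 174 to 812 CPM on average (log2 fold change 2.22, edgeR adjusted p = 2.76e-07). Its level set the sum of that list, 224 to 362 CPM in controls and 660 to 1120 CPM in the other group. Atoh1 had no row, and Olig2 and Otx2 averaged 0.543 and 0.188 CPM in libraries labelled Isl1CKO. Of the 4 hair cell markers tested only Ccer2 passed, as lower (-3.26), and neither of the 2 otic epithelium markers tested did. Endothelial markers summed to at most 29.6 CPM, and the 1 red blood cell marker with a row reached 5.87 CPM. The part of these cells in the changes of LIM genes was not tested.

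Genes whose pattern was most like each of these genes were found by Pearson's r of log2 CPM over the 12 libraries among 9589 tested genes of at least 3 in mean log2 CPM. This is a description, and for genes that differ between the groups r mostly reflects that difference. Lhx2 was most like Brinp3 (r = 0.989), Mn1 (0.987) and Ptprz1 (0.986). Lhx1 was most like Lhx1os (0.990), Mab21l1 (0.975) and Gria2 (0.971), and with Lhx1os r was 0.65 within controls and 0.98 within the other group. Isl2 was most like the neurotrophin receptor gene Ntrk2 (0.983), Samd5 (0.975) and Acsl1 (0.972). Lmo1 was most like Kcnmb2 (0.965), which encodes a potassium channel subunit, with r of 0.86 within controls and 0.91 within the other group, then Gm37834 (0.917) and Mob2 (0.907). Isl1, which did not differ between the groups beyond its error, was most like Amot (0.884), Casp8ap2 (0.821) and N4bp2l2 (0.813).

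Whether these genes varied together among libraries of a genotype was asked within the 6 libraries labelled Isl1CKO, on log2(CPM + 1). Isl1 and Lhx2 had Pearson's r of 0.795 (exact permutation p = 0.0861, adjusted p = 0.169 over the 5 relations computed) and Spearman's rho of 0.429 (exact permutation p = 0.419, adjusted p = 0.699). Once the 2 libraries farthest from the median Isl1 level were left out, r became -0.629, so the relation rests on those libraries. The relations of Isl1 and Lhx2 with Lhx9 rest on at most 5 counts of Lhx9 per library and were not read. Lhx1 with Lhx2 and Lhx2 with Gata3 were added after their values were seen. Lhx1 and Lhx2 had r of 0.871 (exact permutation p = 0.0333, adjusted p = 0.167) and rho of 0.829 (exact permutation p = 0.0583, adjusted p = 0.146), and r fell to 0.303 once the 2 libraries with the Lhx1 level farthest from the median were left out. Lhx2 and Gata3 had r of -0.767 (exact permutation p = 0.101, adjusted p = 0.169) and rho of -0.829 (exact permutation p = 0.0583, adjusted p = 0.146), and r became 0.117 on leaving out the 2 farthest by Lhx2 level. No relation passed the adjustment.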

How the data were processed

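The authors deposited whole-number counts per gene, not normalized. Per the submitters' processing notes, cutadapt 1.18, Bowtie 1.2.2, STAR 2.7.0c and featureCounts were used with GRCm38.p6. The annotation and the use of strand are not given in the sources used here. Symbols, positions and exon lengths came from GENCODE M21 on GRCm38, which located 25627 of 25674 identifiers and may differ from the counting annotation.

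Genes were kept by filterByExpr (minimum count 10), scaled by TMM and tested with the robust quasi-likelihood F-test of edgeR 4.0.16 under R 4.3.3, with no covariate. Adjusted p-values are Benjamini-Hochberg values over all tested genes, with a threshold of 0.05. The standard error is the absolute log2 fold change divided by the square root of F. Alternatives were the DESeq2 1.42.0 Wald test, limma-voom (limma 3.58.1), DESeq2 size factors, upper quartile scaling, no filter, a mean of at least 5 CPM, robust estimation off, the replicate number as a block, and each library left out in turn. On simulated counts edgeR recovered 53.7% of genes altered by 1 and 86.3% of those altered by 2 on the log2 scale, among 14447 genes tested for this comparison, with 2 false calls. No 2 libraries agreed within sampling noise (66 pairs compared).

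The genes, lists and rules were chosen with earlier results of these data known. The text names all 10 genes, every LIM homeobox, LMO, LDB and LDB partner gene, and the 3 called genes of smallest p in each other list. Likeness named 3 genes for Isl1 and for each gene that passed. Protein sequences were not used here. Lhx8 had no row and is not analysed here.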

Additional observations from a re-analysis of the deposited data

Results flagged for a closer look

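Of 28 group values checked among the LIM homeobox, LMO and LDB genes, 2 held a single library beyond Dixon's limit for 6 samples. Chance flags about 1 in 20 groups, or 1.4 here. Isl1 was at 1050 CPM in Isl1CKO 1, against 1361 to 1589 CPM in the other libraries of that label. Isl1CKO 1 was also the lowest of its label for Lhx2, Lhx1 and Lmo1, and the highest for Isl2. Lhx3 was at 0.834 CPM in control 3, from 10 counts, against 0 to 0.0831 CPM in the other controls. Control 3 also had the highest Ldb2 and Lhx6 levels of the controls. The cause of either value was not tested.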

How the results depend on the processing

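Isl2, Lhx1, Lhx2 and Lmo1 kept their direction and stayed past the threshold in all 22 alternative settings, with log2 fold changes of -2.44 to -2.03, 3.97 to 4.33, 6.07 to 6.43 and -0.95 to -0.76. Isl1 (-0.22 to -0.08) and Lmo4 (0.04 to 0.41) stayed short of it. Ldb1 changed sign to 0.03 under limma-voom, without control 3 and with Isl1CKO 2, 3 and 5 left out, and to 0.01 without control 6. Its range with 1 library left out was -0.14 to 0.03. Ldb2 passed under limma-voom (1.82, adjusted p = 0.0132), with the replicate block and without control 3. Ssbp3 was not called under DESeq2 size factors (edgeR adjusted p = 0.050) or upper quartile scaling (edgeR adjusted p = 0.0819). The cause was not tested.

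The sets left out, Isl1CKO 2, 3 and 5 and the 6 libraries above 20 CPM of macrophage markers, were chosen after seeing the data. They gave 767 and 530 called genes in all, in place of 1511, from fewer samples. Both sets could not be left out together, since no library labelled Isl1CKO would remain. LIM homeobox genes called were 4 in place of 3 in the second set and with no filter, Lhx4 being added. LDB partner genes called went from 2 to 0 in both, other LIM domain genes from 6 to 2 in both, the spinal and hindbrain partner factors from 2 to 1 in the first, and cholinergic genes from 1 to 0 in both. LDB partner genes called were 1 under DESeq2 size factors, upper quartile scaling, no filter and robust estimation off. Cholinergic genes called were 0 with no filter and with the replicate block. With 1 library left out, LDB partner genes called ran from 1 to 2 and cholinergic genes from 0 to 1.

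With the longest transcript as length the share of Isl1 in controls was 79.0%, that of Isl2 19.7%, and that of Lhx1 in libraries labelled Isl1CKO 7.27%. With no length correction Isl1 was 82.9% and Isl2 15.3% in controls, and Isl2 3.28% in the other group. The order of groups did not change in these. Without the 2 libraries farthest from the median, r of Isl1 with Lhx2 was -0.63 in place of 0.79. That of Isl1 with Lhx9 was -0.85 in place of 0.24, which cannot be read, since Lhx9 had at most 5 counts.

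Replicate numbers did not pair the libraries: deviations from the group means correlated by -0.056 to 0.152 between same-numbered libraries, and 2 of 6 controls correlated best with their own number. With the replicate block 1450 genes were called in all and 5 of the 10 genes, Ldb2 being added.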
